A study of Homo sapiens with 2 samples.

Results

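The widest H3K27ac peaks of enzalutamide-resistant C4-2B cells were chosen as every peak of at least 1200 bp on chromosomes 1 to 22 and X in the deposited H3K27ac peak list. The rule took 1977 of 64784 peaks (3.05%), which covered 2.83 of the 24.4 Mb under all H3K27ac peaks. Their median width was 1372 bp and the widest, at TSC22D2, measured 2896 bp. The members were thus chosen by a measured value, their width in that library. They were set beside the 9356 peaks of at least 600 but under 1200 bp, called mid-width peaks here, and beside all 62807 peaks under 1200 bp (median width 243 bp).

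C4-2B is a human prostate cancer cell line that descends from LNCaP and grows after castration. The cells of both libraries had spent 6 months or more in enzalutamide, an antiandrogen drug. CUT&Tag, in which an antibody brings a transposase to marked nucleosomes, was run on 100000 cells for each mark, with 1 library for H3K27ac and 1 for H3K4me1, and the series was designed around super enhancers. Both libraries come from the 1 resistant line, and no parental line, drug-free culture, replicate or background library was among the samples. No test between conditions was therefore possible. Peaks of 1 library share their source and are not replicates, so no p-value is given, and the 95% interval in parentheses after a share (exact Clopper-Pearson) reflects counting error alone. In bulk material, more marked cells and more marked nucleosomes per cell cannot be told apart.

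H3K27ac, acetylation of lysine 27 on histone H3, is laid down by the acetyltransferases p300 and CBP and marks active promoters and active enhancers. H3K4me1 is written mainly by KMT2C and KMT2D. It marks enhancers and the shoulders of promoters, while the nucleosomes just downstream of a strong start site carry trimethylation of the same lysine instead. Wide acetylated or trimethylated domains over start sites are known from genes that cells express steadily or that define their identity.

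The line's labelled identity was visible in the H3K27ac list as a whole. Of 20 prostate luminal markers, 17 had an H3K27ac peak at their start or at a listed gene end. Of the 10 blood markers none had one, and of the 10 stromal and 15 basal markers 1 and 2 did. Across all 19974 protein-coding genes the share was 53.2%.

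Most wide peaks lay over promoters, and the promoters they covered were of more than 1 kind. Shown here are the 250 bases upstream of the start for ARF1 and JUN, whose peaks are among the 20 widest, and for HNRNPF, whose peak was the second deepest of the wide peaks. SPDEF and ELF3 follow because both are ETS factors of luminal epithelium and their starts lie in CpG-poor DNA. The sequences are from RefSeq on GRCh38.p14 and read 5′ to 3′ in the direction of the gene. Capitals mark GGGCGG (the GC box bound by SP1), CCGGAAG (an ETS site) and CCAAT (bound by NF-Y), on either strand. Only the match of letters was searched, and a match is not evidence of binding.

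ARF1, chr1:228082458-228082707, + strand: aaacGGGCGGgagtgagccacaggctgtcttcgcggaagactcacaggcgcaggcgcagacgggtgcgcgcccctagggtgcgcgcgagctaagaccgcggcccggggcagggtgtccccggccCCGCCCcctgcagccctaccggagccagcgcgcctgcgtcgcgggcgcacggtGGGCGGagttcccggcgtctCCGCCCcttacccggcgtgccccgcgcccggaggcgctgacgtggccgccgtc
JUN, chr1:58784048-58784297, - strand: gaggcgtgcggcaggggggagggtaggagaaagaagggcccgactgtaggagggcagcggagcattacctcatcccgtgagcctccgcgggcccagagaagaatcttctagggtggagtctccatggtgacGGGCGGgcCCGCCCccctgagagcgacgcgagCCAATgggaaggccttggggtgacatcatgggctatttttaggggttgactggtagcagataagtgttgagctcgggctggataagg
HNRNPF, chr10:43408858-43409107, - strand: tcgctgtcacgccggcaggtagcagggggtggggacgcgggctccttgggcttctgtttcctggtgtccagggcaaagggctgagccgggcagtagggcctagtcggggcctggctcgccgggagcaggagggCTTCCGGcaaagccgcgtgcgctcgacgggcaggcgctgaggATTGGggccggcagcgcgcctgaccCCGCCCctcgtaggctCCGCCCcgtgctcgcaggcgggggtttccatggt
SPDEF, chr6:34556330-34556579, - strand: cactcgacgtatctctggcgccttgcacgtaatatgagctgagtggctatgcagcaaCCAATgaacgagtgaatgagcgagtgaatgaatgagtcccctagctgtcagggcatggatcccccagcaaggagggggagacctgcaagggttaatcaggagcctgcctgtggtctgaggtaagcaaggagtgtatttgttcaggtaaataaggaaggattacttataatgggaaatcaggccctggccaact
ELF3, chr1:202010337-202010586, + strand: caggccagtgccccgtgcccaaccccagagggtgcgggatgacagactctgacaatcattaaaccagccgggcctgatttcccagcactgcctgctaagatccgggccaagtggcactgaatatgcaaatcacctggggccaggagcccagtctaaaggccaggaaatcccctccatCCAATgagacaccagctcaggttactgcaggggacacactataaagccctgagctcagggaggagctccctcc

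The ARF1 stretch held 4 GC boxes and 38 CpG dinucleotides. The JUN stretch held 2 GC boxes, 1 CCAAT box and 14 CpGs, and the HNRNPF stretch 2 GC boxes, 1 ETS site, 1 CCAAT box and 25 CpGs. The SPDEF and ELF3 stretches held no GC box, 1 CCAAT box each, and 6 and 4 CpGs. The GC boxes of the first 3 are what most starts in wide peaks have, as described next, and the last 2 lack them.

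Starts inside wide peaks lay in GC-rich, CpG-rich DNA. A 5′ start was known for 15812 protein-coding genes, and 1521 of them (9.62%) fell inside a wide peak. The 300-base promoter window, 250 bases before to 50 after the start, held a median of 32 CpGs at these starts, against 28 at starts in mid-width peaks, 24 in narrower peaks and 8 at starts in no H3K27ac peak. Median GC content followed the same order, at 69.7%, 66.3%, 64.0% and 56.0%.

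GGGCGG occurred in 81.9% (79.8 to 83.8) of the promoter windows in wide peaks. The share was 75.9% (74.7 to 77.0) in mid-width peaks, and 58.5% over all 15812 windows. The ETS site CCGGAAG went the other way between wide and mid-width peaks, with 20.4% (18.4 to 22.6) in wide and 24.4% (23.3 to 25.7) in mid-width peaks, against 14.2% of all windows. CCAAT did not separate the classes, at 37.0% in wide peaks and 36.3% of all windows. TATAAA, the core of the TATA box, was found in 3.29% of windows in wide peaks and 9.64% of all windows. The palindromic NRF1 site occurred in 2.96% against 1.76% of all, the AP-1 site TGANTCA in 3.68% against 5.76%, and the forkhead site TGTTTAC in 1.84% against 2.62%. These 4 motifs did not separate wide from mid-width peaks, where TATAAA was in 3.78% of windows, the NRF1 site in 3.25%, the AP-1 site in 3.01% and the forkhead site in 1.92%, each with an interval overlapping that of wide peaks.

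By location, 1311 of the 1977 wide peaks held at least 1 protein-coding start. Another 260 held a listed end of a protein-coding gene without a start in the promoter table, and 128 lay within 2.5 kb of such an end. A further 63 held an end of another RNA or of a pseudogene only. The remaining peaks lay inside a protein-coding gene (173) or outside protein-coding genes (42).

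Among the 1902 wide peaks on chromosomes with entries in the promoter table, 68.9% (66.8 to 71.0) held a start. The share was 50.0% (49.0 to 51.1) for mid-width peaks and 10.7% (10.4 to 10.9) for all narrower peaks. A longer interval has more room for a start, and this was not corrected for. Wide peaks were also deeper, so the shares were compared again by classes of depth. Depth here is the summit pileup, the number of fragments stacked at the peak's highest point, recovered from the deposited fold and p. With the narrower peaks weighted to the pileups of the wide ones, the share was 58.5% for mid-width peaks and 42.8% for all narrower peaks. At matched depth the gap thus shrank and remained, and the part of interval length in it was not separated.

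Within pileup classes the same order held. At pileups under 50, 58.5% (52.1 to 64.8) of wide peaks and 31.6% (30.0 to 33.2) of mid-width peaks held a start. At pileups of 150 and over, the shares were 78.1% (73.7 to 82.1) and 68.2% (65.1 to 71.1). At pileups from 100 to under 150 the intervals overlapped, with 70.0% (65.9 to 73.9) against 66.8% (64.4 to 69.2).

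**Figure D1:**
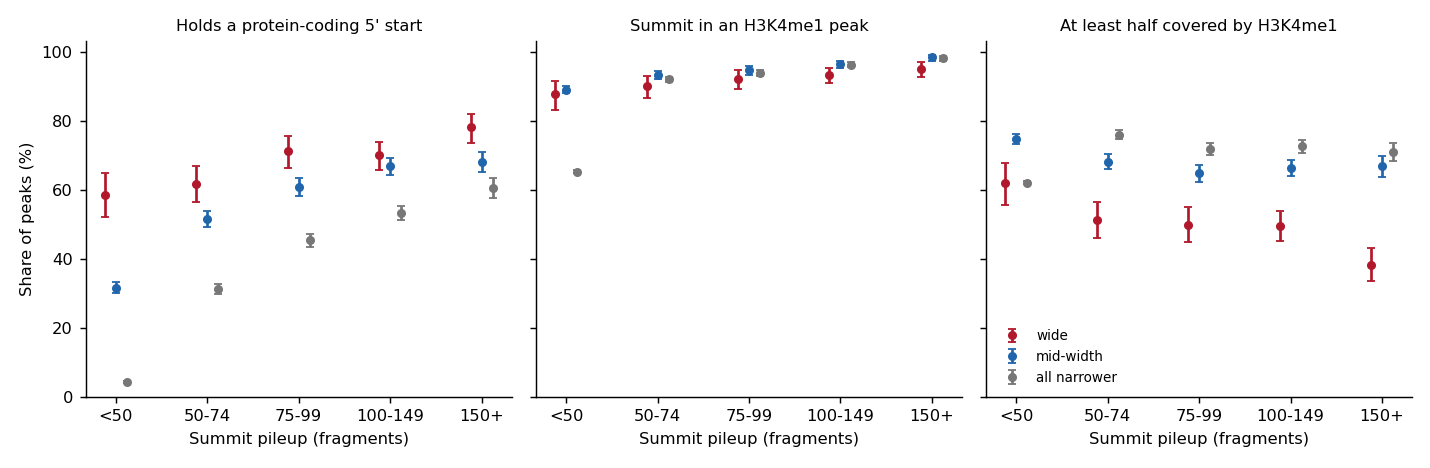
Share of H3K27ac peaks (y axis, percent, with exact 95% intervals) that hold a protein-coding start, have the summit in an H3K4me1 peak, or are at least 50% covered by H3K4me1, by summit pileup in fragments (x axis), for wide peaks (red), mid-width peaks (blue) and all narrower peaks (grey). Wide peaks hold a start most often in each class, from 58.5% to 78.1%, and at pileups of 150 and over only 38.2% of them are at least 50% covered by H3K4me1.

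The 20 widest peaks ran from 2191 to 2896 bp, and 2 of them lay outside protein-coding genes. The widest, at TSC22D2 (chr3:150408185-150411080), had a summit pileup of 213 (185 to 244, an exact Poisson 95% interval, as after other pileups) over a local background of 16.7 fragments, a fold enrichment of 12.1 as deposited by the authors, and 2 H3K4me1 peaks covering 44.7% of it. The second, 2729 bp, spanned the starts of CLCN2, a chloride channel, and POLR2H, a subunit shared by the nuclear RNA polymerases, with a pileup of 162 (138 to 189) and 5 H3K4me1 peaks. CDK13, a kinase of the RNA polymerase II tail, lay under 2683 bp with a pileup of 206 (179 to 236).

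Other members of the 20 widest paired a regulator with a modest fold. ARF1, the small GTPase of Golgi vesicle coats, lay under 2451 bp with a pileup of 230 (201 to 262) and a fold of 10.2. JUN, the AP-1 subunit, lay under 2421 bp with the deepest summit of the 20, a pileup of 277 (245 to 312), yet a fold of 7.45 because its local background was 36.3 fragments. KMT2B, an H3K4 methyltransferase, shared 2403 bp with ZBTB32 at the lowest pileup of the 20, 51 (38.0 to 67.1), and a fold of 4.92. SETD5, a SET-domain chromatin regulator, lay under 2398 bp (pileup 215, 187 to 246).

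The rest of the 20 included several intervals shared by neighbouring genes. MBOAT7, which acylates lysophosphatidylinositol, and TSEN34, a subunit of the tRNA splicing endonuclease, shared 2502 bp with a pileup of 139. DDX5, an RNA helicase, and CEP95 shared 2281 bp with a pileup of 259 and only 23.9% of the peak in H3K4me1. FADS1 and FADS2, the fatty acid desaturases, shared 2225 bp with a pileup of 167 and 83.4% in H3K4me1. PROM2, a membrane-protrusion glycoprotein, lay under 2252 bp that was 76.3% covered by H3K4me1. The H3K27ac pileup there was 88 and the deepest H3K4me1 pileup 157, counts of separate libraries of unknown depth that cannot be compared. SYNCRIP, an RNA-binding protein, MAGI1, a junction scaffold, TPRA1, SPATA2L, PRDM10, a zinc-finger factor, CD63, a tetraspanin of late endosomes, and the locus of KIAA0753, LOC122526780 and TXNDC17 made up the others near genes, with pileups of 83 to 170.

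The 10 deepest wide peaks form a second list. None of the 10 with the highest pileup was among the 20 widest, and their widths ran from 1234 to 1838 bp. Only 20 of the 1977 wide peaks are in the widest list, so 10 peaks taken without regard to width would mostly miss it too. Over all wide peaks, width and pileup rose together weakly (Spearman correlation 0.157). The deepest was at the lncRNA ENEMAL on chromosome 11, where 1580 bp reached a pileup of 458 (417 to 502), with 86.8% of the peak in H3K4me1. HNRNPF, an RNA-binding splicing regulator, reached 447 (407 to 490) and RAB10, a GTPase of exocytosis, 437 (397 to 480). The other 7 lay at CDC25C with FAM53C, FNIP1, PPP2CA (the catalytic subunit of phosphatase 2A), ARIH1, IPO13, UBAP1 and GPBP1, with pileups of 353 to 393.

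Some wide peaks held the starts of more than 1 gene. Of the 1902 peaks with start information, 10.8% (9.42 to 12.3) held 2 or more protein-coding starts, against 5.82% (5.35 to 6.33) of mid-width peaks and 7.76% of those peaks weighted to the wide peaks' pileup. Here too the part of interval length was not separated. In 153 of the 200 peaks with exactly 2 starts (76.5%, 70.0 to 82.2) the genes pointed away from each other, with a median of 239 bp between the starts. In 35 the genes pointed toward each other, so that their first bases overlapped, and in 12 they ran the same way.

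There were 5 wide peaks with 3 starts. They lay at ZMYND12, CCDC30 and PPCS, at TADA3, ARPC4 and its readthrough ARPC4-TTLL3, at KYAT1, its readthrough and LRRC8A, at NEDD8, its readthrough and GMPR2, and at KIAA0753, LOC122526780 and TXNDC17. A readthrough gene shares the start region of its first partner, so 3 of these 5 peaks count 1 promoter more than once. Their pileups ran from 55 at KYAT1 to 229 at TADA3, an adaptor of histone acetyltransferase complexes.

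Counting a start or a listed end inside the peak, wide peaks covered 1884 of the 19974 protein-coding genes (9.43%). The gene lists below were read against that share, and their few members leave wide intervals, so most cannot be told from it. The share is over all genes, and 10628 of them (53.2%) had an H3K27ac peak of any width there. It is therefore not matched to a list in which more genes had some H3K27ac peak. The lists were chosen with earlier results of these data in view.

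Some factors of prostate identity lay under a wide peak, at a share whose interval holds that of all genes. Of 28 prostate lineage factors and steroid receptor coactivators 4 had one (14.3%, 4.03 to 32.7), while 19 had an H3K27ac peak of some width. SPDEF, the prostate-derived ETS factor, lay under 1849 bp with a pileup of 57 (43.2 to 73.9) and 3 H3K4me1 peaks. TRIM24, a bromodomain coactivator of nuclear receptors, had 1448 bp and a pileup of 87, NCOA1, the steroid receptor coactivator, 1366 bp and 53, and ELF3 1321 bp and 121. SPDEF's summit lay 44 bp downstream of the start and its peak ran 1610 bp into the gene against 238 bp upstream.

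Other factors of the list had narrower peaks, and those named here were picked after their values were seen. At FOXA1, the pioneer factor, the peak was 517 bp wide with a pileup of 67, and at HOXB13, a prostate homeobox factor, 920 bp with 72. XBP1, the secretory stress factor, had 378 fragments over 774 bp. Depth and width were thus not the same ordering of these genes.

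Of 28 androgen response genes (29 were listed and 28 found in the gene table) 4 lay under a wide peak (14.3%, 4.03 to 32.7), and 22 had an H3K27ac peak. CAMKK2, a kinase induced by androgen, had 1819 bp with a pileup of 50 (37.1 to 65.9), and ZBTB10, a zinc-finger repressor, 1748 bp with 81. CENPN, a centromere protein, had 1340 bp with 208 (181 to 238), and ABCC4, a transporter, 1214 bp with 46. The classic targets were not among them. KLK3, which encodes PSA, had 543 bp with a pileup of 106, TMPRSS2 971 bp with 193, and STEAP2, a metalloreductase, 833 bp with 534 (these chosen after their values were seen). The pileup at STEAP2 exceeded that of every wide peak.

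Of 20 luminal markers 1 had a wide peak, the tight junction gene CLDN3, with 1287 bp, a pileup of 111 and 3 H3K4me1 peaks. No basal (0 of 15), neuroendocrine (0 of 15), blood (0 of 10), stromal (0 of 10) or homeobox cluster gene (0 of 19) had one, which allows a share of up to 21.8%, 21.8%, 30.8%, 30.8% and 17.6% by the exact interval. Among the neuroendocrine genes 4 had a narrower H3K27ac peak.

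Immediate early factors, which cells switch on within minutes of a stimulus, had wide peaks at 6 of 25 (24.0%, 9.36 to 45.1). Besides JUN these were EGR1 (1801 bp, pileup 164), BTG1 (1748 bp, 60), JUND (1522 bp, 252), KLF6 (1369 bp, 119) and ZFP36L2 (1242 bp, 59). FOS, the partner of JUN in AP-1, had 920 bp with a pileup of 213 (185 to 244), beside 277 (245 to 312) at JUN, so the 2 subunits were on different sides of the width threshold and their pileup intervals did not overlap. That gene was picked after its value was seen.

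Genes of the cell cycle and housekeeping genes were covered at shares above 9.43%, with intervals that began at 8.66 and 10.7. Of 20 MYC and cell cycle genes 5 had a wide peak (25.0%, 8.66 to 49.1): MXD1 (1605 bp, pileup 98) and MAX (1449 bp, 91), which partner in the MYC network, the replication clamp PCNA (1557 bp, 126), and the cyclins CCNE1 (1401 bp, 33) and CCND1 (1244 bp, 54). Of 22 housekeeping genes 6 had one (27.3%, 10.7 to 50.2), and all 22 had an H3K27ac peak. These were YWHAZ (2164 bp, 259), GAPDH (1897 bp, 46), PPIA (1526 bp, 157), HSP90AB1 (1330 bp, 146), SDHA (1309 bp, 221) and RPLP0 (1222 bp, 85). SDHA also had the highest fold of any wide peak, 24.2.

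Of 15 lipid and cholesterol synthesis genes 4 had a wide peak (26.7%, 7.79 to 55.1). ACLY, which makes cytosolic acetyl-CoA, had 1694 bp with a pileup of 78, SREBF2, the sterol-sensing transcription factor, 1518 bp with 148, FDPS 1465 bp with 125 and LSS, lanosterol synthase, 1442 bp with 150. Among 24 chromatin coactivators and readers 6 had one (25.0%, 9.77 to 46.7). Among them were KMT2B, described above, EZH2, the H3K27 methyltransferase (1595 bp, 79), KMT2A (1546 bp, 124), KMT2D (1252 bp, 79) and CDK12 (1241 bp, 254).

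Signalling lists had shares whose intervals hold that of all genes. Of 15 glucocorticoid receptor targets 2 had a wide peak (13.3%, 1.66 to 40.5), ERRFI1, a feedback inhibitor of EGF receptor (1541 bp, 273), and NFKBIA, the NF-kB inhibitor (1299 bp, 90). Of 22 Wnt and Notch genes 3 did (13.6%, 2.91 to 34.9): HES4 (1821 bp, 279), CTNNB1, which encodes beta-catenin (1313 bp, 92), and AXIN1 (1218 bp, 89).

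**Figure D2:**
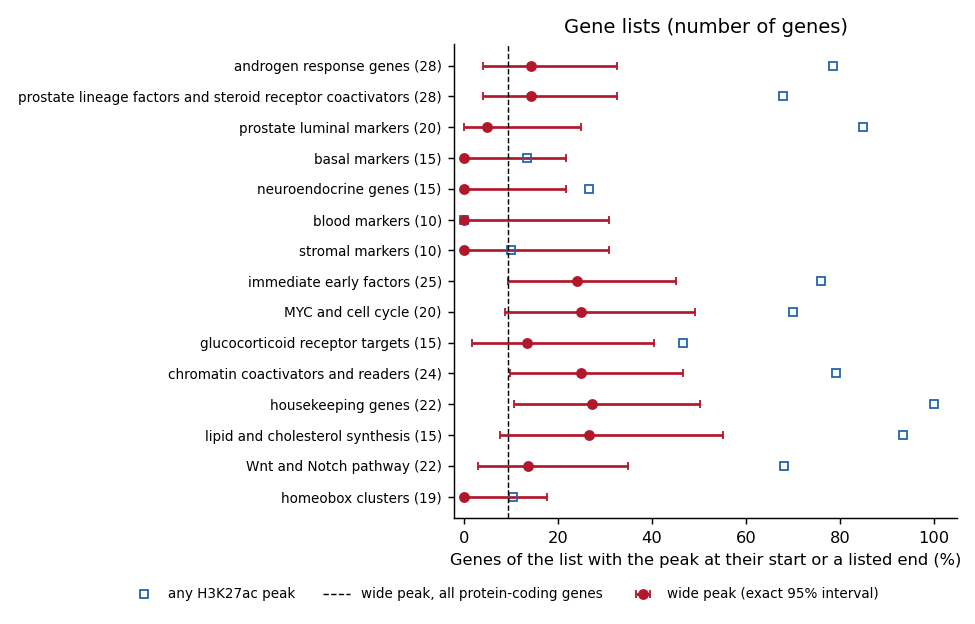
Percent of the genes of each list (x axis) with a wide H3K27ac peak at their start or a listed end (red points, exact 95% intervals) or with any H3K27ac peak there (blue squares), with the number of genes in parentheses. The dashed line is the 9.43% of all protein-coding genes with a wide peak, and the intervals of the housekeeping and chromatin lists, which begin at 10.7 and 9.77, lie just above it. All 22 housekeeping and 19 of 24 chromatin genes had some H3K27ac peak, against 53.2% of all genes, so the line is not matched to them.

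Wide peaks also covered genes of non-coding RNA. By a start or a listed end, wide peaks covered 29 of 1911 miRNA genes (1.52%), against 9.43% of protein-coding genes. Of 1558 miRNA hairpins with a RefSeq entry, 116 overlapped an H3K27ac peak and 21 a wide one. For 3 of the loci the wide peak overlapped no protein-coding gene, and a mature miRNA of each is shown from RefSeq, 5′ to 3′, with the seed (bases 2 to 8) in capitals. They have 3 different seeds. They were picked for that position after the overlaps were seen.

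let-7i-5p: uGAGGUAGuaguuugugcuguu
miR-203a-3p: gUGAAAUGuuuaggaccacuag
miR-193a-3p: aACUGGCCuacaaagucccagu

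The let-7i hairpin, of the growth-restraining let-7 family, lay at the end of a 1370 bp peak with a pileup of 83. The miR-203a hairpin, an epithelial miRNA, lay at the end of a 1201 bp peak with a pileup of 43. Both hairpins run past the peak's edge. The miR-193a hairpin lay inside 1261 bp with a pileup of 48.

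Nearly every wide peak met H3K4me1, which was measured in the other library and played no part in choosing the peaks. Of 1977 wide peaks 1961 overlapped an H3K4me1 peak by at least 1 bp (99.2%, 98.7 to 99.5), against 97.2% (96.9 to 97.6) of mid-width peaks, 72.8% (72.4 to 73.1) of all narrower peaks and 73.6% of all H3K27ac peaks. Weighted to the wide peaks' pileup, the narrower shares were 98.1% and 93.4%. The gap to all narrower peaks was 26.4 percentage points, or 5.75 after that weighting, and the gap to mid-width peaks was 1.96. Depth and width rise together here, and their parts in the gap were not separated.

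At the summit the order was not the same. The H3K27ac summit lay in an H3K4me1 peak for 92.2% (90.9 to 93.3) of wide peaks and 93.0% (92.4 to 93.5) of mid-width peaks, with overlapping intervals. All narrower peaks had 69.9% (69.5 to 70.3) and all H3K27ac peaks 70.6%. Weighted to the wide peaks' pileup classes, the share was 94.9% for mid-width peaks and 91.3% for all narrower peaks. In 139 wide peaks the summit lay outside H3K4me1 although the peak overlapped it elsewhere, and EGR1, GAPDH and the MBOAT7 and TSEN34 promoter were among these.

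Wide peaks met more H3K4me1 peaks each. Of wide peaks 74.5% (72.5 to 76.4) overlapped 2 or more separate H3K4me1 peaks, against 34.3% (33.4 to 35.3) of mid-width peaks, and 24.8% overlapped 3 or more, against 2.46%. These counts follow the length of the interval, which chose the peaks: the share with 2 or more rose from 0.257% of peaks under 250 bp to 97.6% of those of 2000 bp and over. The covered share of the peak was lower. A median of 49.4% of a wide peak's bases lay in H3K4me1, against 66.0% for mid-width peaks, although the covered length was larger, at 703 against 549 bp. At least 50% of the peak was covered in 49.2% (46.9 to 51.4) of wide peaks and 69.6% (68.7 to 70.5) of mid-width peaks.

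The share covered also fell as wide peaks grew deeper. At least 50% coverage was found in 61.9% (55.7 to 67.9) of wide peaks with pileups under 50 and in 38.2% (33.5 to 43.1) of those with 150 and over. Mid-width peaks went from 74.7% to 66.9% over the same classes. Across width the decline continued within the wide peaks, from 52.1% under 1500 bp to 42.5% from 1500 to under 2000 bp and 31.0% (17.6 to 47.1) of the 42 peaks of 2000 bp and over.

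H3K4me1 was lowest in the middle of wide peaks. With each peak cut into 10 equal parts, 60.3% and 60.6% of bases lay in an H3K4me1 peak in parts 2 and 9, and 42.8% in part 5. The outermost parts, 1 and 10, had 58.1% and 58.6%. In mid-width peaks the outermost parts were lowest, at 55.6% and 55.3%, and the share was 68.9% in part 3 and 65.2% in part 5. The middle base of the peak lay in H3K4me1 in 42.6% (40.4 to 44.8) of wide peaks and 64.9% (63.9 to 65.8) of mid-width peaks. H3K4me1 in both outer 30% parts of the peak but not at the middle base was found in 40.1% (37.9 to 42.3) and 18.1% (17.4 to 18.9). In peaks under 600 bp the share was 1.07%. A longer interval has more room for such a gap, and the part of length in these shares was not separated.

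**Figure D3:**
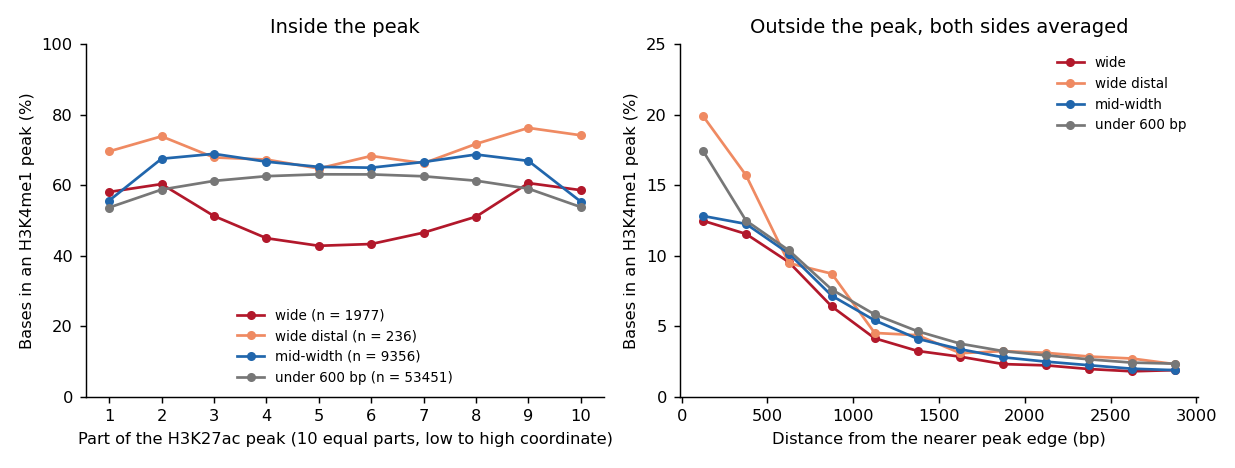
Percent of bases inside an H3K4me1 peak (y axis) in each of 10 equal parts of the H3K27ac peak (left) and by distance in bp outside its edges (right), for wide peaks (red), distal wide peaks, more than 2.5 kb from protein-coding gene ends (orange), mid-width peaks (blue) and peaks under 600 bp (grey). Wide peaks dip to 42.8% in part 5, while outside the peak all 4 lines fall below 4% from 1500 bp on.

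The dip was found more often at promoters than away from them. Among wide peaks that held a start, 42.6% (39.9 to 45.4) had H3K4me1 in both outer parts but not at the middle, against 23.2% of start-holding mid-width peaks. Among the 236 wide peaks that lay more than 2.5 kb from any protein-coding gene end and held no tabulated start of a gene of any type, called distal here, the share was 25.4% (20.0 to 31.5), against 9.90% of distal mid-width peaks.

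Around the starts themselves H3K4me1 was skewed upstream. For the 1106 starts that were alone in a wide peak, 76.7% of bases in the 200 bp before the start lay in an H3K4me1 peak and 38.4% in the 200 bp after it. Coverage fell to 21.7% at 200 to 400 bp and rose again to 30.8% at 800 to 1000 bp, near the downstream edge of the acetylated interval. Starts alone in a mid-width peak had 80.4% before the start and 31.7% at 200 to 400 bp, with no second rise, at 12.8% by 800 to 1000 bp. Starts in peaks under 600 bp had 13.4% at 400 to 600 bp and 16.3% at 600 to 800 bp. A second rise was thus not particular to wide peaks. The start base itself lay in H3K4me1 for 72.1% (69.8 to 74.4) of starts in wide peaks, 82.2% (81.1 to 83.2) of those in mid-width peaks, and 7.61% of starts in no H3K27ac peak.

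**Figure D4:**
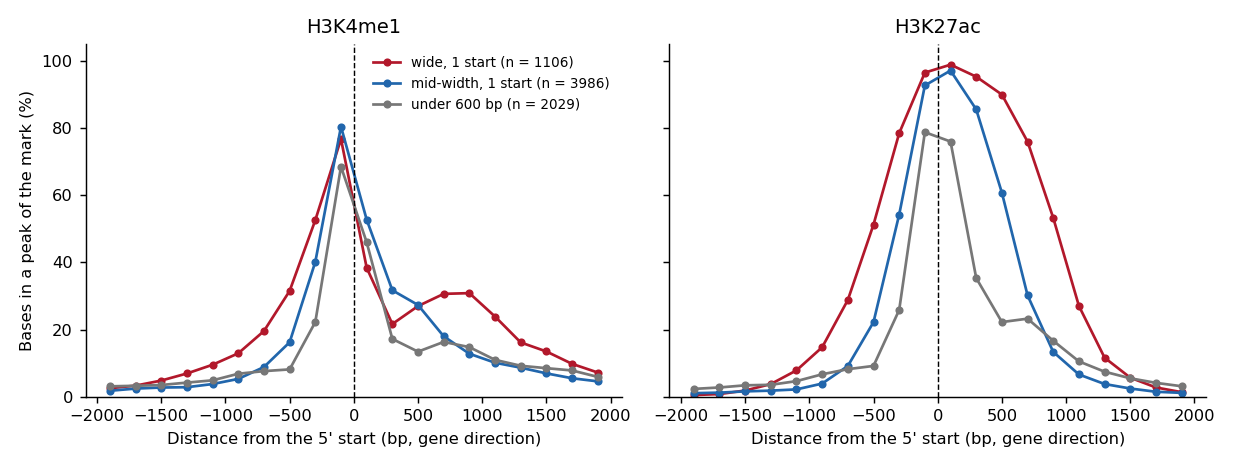
Percent of bases inside a peak of H3K4me1 (left) or H3K27ac (right), in steps of 200 bp, against distance in bp from the 5′ start in the direction of the gene, for starts alone in a wide H3K27ac peak (red, 1106 starts), alone in a mid-width peak (blue, 3986) or in a peak under 600 bp (grey, 2029). At starts in wide peaks H3K4me1 drops from 76.7% just upstream to 21.7% at 200 to 400 bp and rises again to 30.8%, while H3K27ac is set by the choice of peaks.

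Beyond the edges, wide and mid-width peaks had similar shares of bases in H3K4me1. In the first 250 bp outside a wide peak 12.5% of bases lay in H3K4me1, against 12.8% outside mid-width peaks, and the share fell to 1.89% for both from 2750 bp on, with 1.28% between the first and last peak of the chromosomes as a whole. An H3K4me1 peak reached into the 2 kb on both sides of 32.6% (30.6 to 34.7) of wide peaks, against 37.3% (36.4 to 38.3) of mid-width peaks and 45.9% (45.5 to 46.3) of all narrower peaks. Weighted to the wide peaks' pileup, the share was 32.8% for mid-width peaks and 39.9% for all narrower peaks. In at least 1 of the flanks H3K4me1 was found for 84.1% (82.4 to 85.7) of wide, 81.5% (80.7 to 82.3) of mid-width and 73.9% (73.6 to 74.3) of all narrower peaks. An H3K4me1 peak wholly separate from the H3K27ac peak lay on both sides of 10.1% (8.77 to 11.5).

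Some H3K4me1 peaks that were themselves wide met a wide H3K27ac peak. Of 640 H3K4me1 peaks of at least 1200 bp, 618 overlapped an H3K27ac peak and 140 (21.9%) overlapped a wide one. In turn 140 wide H3K27ac peaks (7.08%) overlapped such an H3K4me1 peak. Wide peaks are 3.05% of all H3K27ac peaks. The share of all H3K4me1 peaks that overlap a wide one was not counted, so 21.9% is not read as high or low.

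Of the 16 wide peaks without H3K4me1, 13 lay at or within 2.5 kb of a protein-coding gene end, beside 83.2% of all wide peaks. The deepest spanned PSMA7, a proteasome subunit, and SS18L1, with 1282 bp and a pileup of 172 (147 to 200). The next 4 lay inside VDAC1, the outer mitochondrial channel (109), at MED22 with RPL7A (102), at REXO1 (101) and at TOB2 (101). Among the listed genes, ZFP36L2 and KMT2D belonged to these 16.

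Distal wide peaks carried more H3K4me1 than promoter ones. The 236 distal peaks had a median of 74.2% of their bases in H3K4me1, against 46.7% for the 1311 that held a start, and their median deepest H3K4me1 pileup was 73.5 against 42. Their H3K27ac was shallower, with a median pileup of 81 against 101 and a median fold of 10.5 against 12.1. The middle base lay in H3K4me1 for 65.7% (59.2 to 71.7) of distal and 38.7% (36.0 to 41.4) of start-holding wide peaks. The contrast was not particular to wide peaks. Distal mid-width peaks had a median of 90.3% of their bases in H3K4me1, against 56.7% for start-holding ones. Their median deepest H3K4me1 pileup was 61 against 37, and their median H3K27ac pileup 38 against 82.

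The 5 widest distal peaks differed much in depth. On chromosome 21, 2559 bp within the lncRNA LOC102724701 had a pileup of 219 (191 to 250) over a background of 40.7, the highest background among the 42 peaks of 2000 bp and over. On chromosome 9, 2307 bp within KLF9-DT, 4.20 kb from KLF9, a Krüppel-like factor induced by steroid hormones, had a pileup of 144 and 79.4% in H3K4me1. On chromosome 11, 2072 bp lying 26.9 kb from TP53I11 had a pileup of 250 (220 to 283) and 95.2% in H3K4me1.

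The last 2 were unlike each other in depth and H3K4me1. Inside SEPTIN9, which encodes a filament-forming septin, 2007 bp had a pileup of 191 (165 to 220) and 94.2% in H3K4me1. On chromosome 4, 1955 bp lying 1172 kb from PCDH10, the nearest protein-coding gene, had a pileup of only 23 (14.6 to 34.5), with its summit outside H3K4me1.

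The summit of a wide peak seldom lay at its middle, which was not particular to wide peaks. Measures of summit, pileup and fold come from the call that gave the width, so they are described and not tested. The median distance of the summit from the middle was 20.4% of the width (quartiles 10.2 and 30.8), against 19.0% in mid-width peaks. The summit lay in the outer 50% of the peak, closer to an edge than to the middle, in 39.2% (37.0 to 41.3) of wide peaks and 32.7% (31.7 to 33.6) of mid-width peaks. Peaks under 250 bp were close to wide ones, with a median distance of 20.3% and a share of 38.2% (37.7 to 38.8). At MAGI1 the summit lay 46.6% of the width from the middle, almost at the edge.

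Relative to the gene, the median summit lay near the start, but single summits were less often near it in wide peaks than in narrower ones. The median summit was 35 bp upstream of the start (quartiles 167 bp upstream and 109 bp downstream), and 48.8% (46.2 to 51.3) of starts in wide peaks had it within 150 bp, against 63.0% (61.7 to 64.4) in mid-width peaks and 82.9% under 600 bp. Wide peaks with 1 start reached a median of 505 bp upstream and 899 bp downstream of it, and 75.5% (72.9 to 78.0) reached further downstream. In mid-width peaks the medians were 315 and 532 bp and the share 72.4% (71.0 to 73.8), so the asymmetry was of a like size and the wide peaks were longer on both sides. At JUN the summit lay 184 bp upstream and the peak ran 1670 bp downstream, and at ARF1 the figures were 48 and 1439 bp.

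Wide peaks were deep but not the most enriched. Their median summit pileup was 96 (range 12 to 458), against 65 for mid-width peaks and 12 for all narrower peaks, whose deepest reached 772. Their median background was 7.44 fragments, against 3.99 and 0.997. Their median deposited fold was 11.6, below the 12.7 of mid-width peaks and above the 5.88 of all narrower peaks.

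Across width classes of the wide peaks the median fold fell while the median pileup rose. Under 1500 bp the median pileup was 93 and the fold 12.2, from 1500 to under 2000 bp 104 and 10.6, and at 2000 bp and over 141.5 and 9.31. The background rose over these classes from 6.80 to 8.82 and 14.5 fragments. Within pileup classes wide peaks also had the lower median fold, with 14.1 against 17.9 for mid-width peaks at pileups of 150 and over. Under 50 the medians were 9.41 and 9.57, but depth itself still differed within that class. The background is drawn from the same library around the peak, and its part in the width was not tested.

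**Figure D5:**
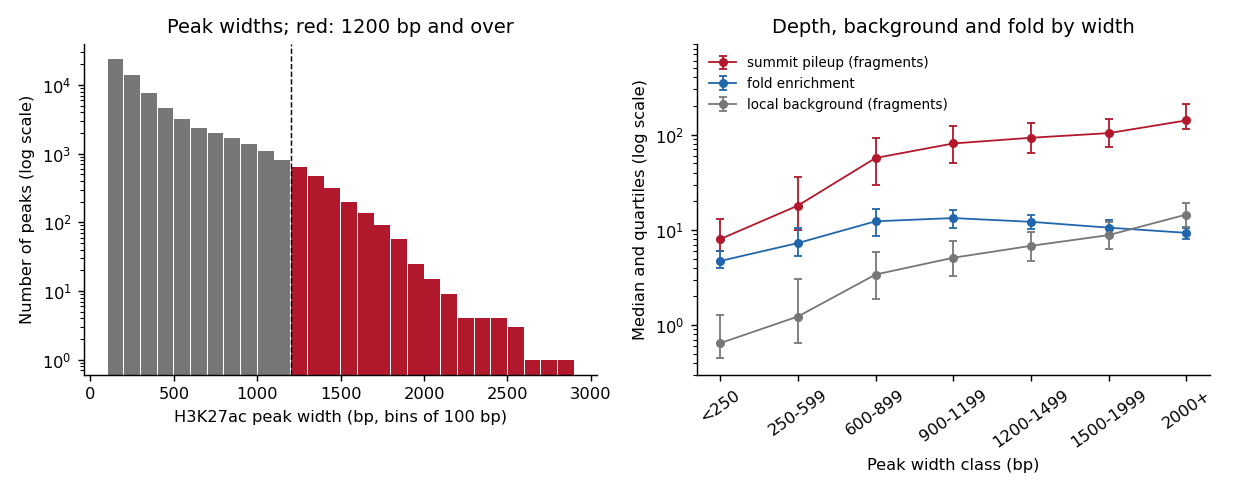
Left, number of H3K27ac peaks (log scale) by width in bp, with the 1200 bp threshold dashed and wide peaks in red. Right, median and quartiles (log scale) of summit pileup, fold enrichment and local background by width class in bp, where the pileup climbs from 93 to 141.5 across the 3 widest classes while the fold falls from 12.2 to 9.31.

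The threshold cut through a smooth range of widths, with 5 peaks at 1200 bp and 5 peaks 1 bp narrower. Just inside were the peaks at ADNP2 (pileup 71, fold 11.4), CLPP (45, 14.8) and within EHBP1 (37, 10.4). Just outside were those at PHC2 (67, 13.1), RBM17 (63, 13.3) and PRDM11 (116, 16.3).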

How the data were processed

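CUT&Tag peak lists of 2 libraries were used, 1 for each mark. Per the submitters' processing notes, BWA, MACS2 and hg38 were used. Versions, settings and any background library are not given in the sources used here. The deposited columns were a score, the fold enrichment (a ratio of summit signal to local background), −log10 p, −log10 q and the summit's offset, all as the authors' peak caller wrote them. Coordinates are hg38. Peaks on chromosomes 1 to 22 and X were kept, 64784 of 64850 for H3K27ac and 139511 of 139692 for H3K4me1. Total depth is unknown. The summit pileup k and background lambda were solved from fold = (k + 1) / (lambda + 1) and from the p of a Poisson tail above k, with a tolerance of 0.001 in −log10 p or a relative 0.0001. All peaks gave a whole k, and 228 H3K27ac peaks, none of them wide, gave more than 1. The recovery was tested on simulated data.

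Gene ends and names came from a RefSeq table for GRCh38 (19974 protein-coding genes), and 5′ starts and sequences from RefSeq promoters of GRCh38.p14. Start shares left out 75 wide peaks on a chromosome without promoter entries. Python 3.11.15, NumPy 2.4.6, pandas 2.3.3 and SciPy 1.17.1 were used. The wide peaks and the 15 gene lists were chosen with earlier results of these data known. Named genes are those of the 20 widest and 10 deepest wide peaks, up to 5 members of a list with the widest peaks, the 5 widest distal peaks, the 5 deepest without H3K4me1, the 3 peaks on each side of the threshold, and peaks with 3 starts. Others are said to be chosen after their values were seen. Alternatives changed the width, the q threshold, the overlap, the flank, the gene window and the class compared. Others joined neighbouring peaks or left out chromosome ends. The peaks at a few listed genes are counted but not reported here by name.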

Additional observations from a re-analysis of the deposited data

How the results depend on the processing

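Of 54 alternatives, 25 left the value within its interval, or a count within 1.5 times, 28 moved it and 1 turned its sign. The turned value is the difference in H3K4me1 overlap between wide and narrower peaks. It was 26.4 percentage points against all narrower peaks, 1.96 against mid-width peaks and 5.75 after weighting by pileup class. Further values were 22.3 at the summit, and -0.818 at the summit against mid-width peaks. The last 2 were added after seeing the data, and the shares behind the last have overlapping intervals.

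Joining H3K27ac peaks over gaps of at most 200 bp gave 2608 wide peaks in place of 1977. Some stretches counted as narrower peaks were thus split by a short gap. A width of at least 1000 bp gave 3891 peaks, 2894 genes with a start, a median pileup of 91 and a fold of 12.3. A width of at least 1500 bp gave 550 peaks, 435 genes, a pileup of 107, a fold of 10.4 and a summit distance of 18.8% of the width. There 99.8% overlapped H3K4me1, 90.2% at the summit, 35.3% had it in both flanks and 72.0% held a start. With −log10 q of at least 5 in both lists no wide peak was lost, and the 3 H3K4me1 shares became 98.1%, 90.4% and 28.1%. Requiring 200 bp or 50% of the peak for overlap gave 96.9% and 49.2%. Flanks of 1 and 5 kb gave 29.4% and 41.5%, and counting only separate H3K4me1 peaks, also added later, gave 10.1%. A start within 1 kb of the peak gave 72.5%, starts of all gene types 73.4%, and a gene-end window of 1 kb 80.8%. Leaving out 5 Mb at chromosome ends moved only the fold, to 11.8. The cause of these shifts was not tested beyond what each setting itself changes. No paired analysis was possible because each mark had 1 library. Without replicates, no value here has an error between cultures.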

Other observations

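Beyond protein-coding genes, wide peaks covered an end of 480 lncRNA genes, 2.64% of the 18177 in the table. Several gene families, picked by symbol after the values were seen, were unevenly covered. Among genes with the HNRNP prefix, which encode RNA-binding proteins of nascent transcripts, 7 of 26 had a wide peak: HNRNPA0, HNRNPF, HNRNPH3, HNRNPK, HNRNPLL, HNRNPU and HNRNPUL2. Among ZNF zinc-finger genes 41 of 517 (7.93%) had one, near the 9.43% of all protein-coding genes, while 376 had an H3K27ac peak. None of the 15 KLK genes, 55 KRT genes, 40 HOX genes or 392 olfactory receptor genes had a wide peak, and 4, 3, 4 and 1 of them had a narrower one.

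By chromosome, wide peaks made up 2.33% of H3K27ac peaks on chromosomes 2 and 6 and 3.81% on chromosome 12. Set against gene number, they were fewest on the X chromosome, with 37.7 for each 1000 protein-coding genes, and most on chromosome 22, with 126. As a share of H3K27ac peaks, however, they were 2.92% on the X chromosome and 3.17% on chromosome 22, near the 3.05% of all peaks. Of the wide peaks, 443 (22.4%) lay within 5 Mb of a chromosome's first or last peak, against 17.4% of narrower peaks. Another H3K27ac peak lay within 500 bp of 340 of the 1977 wide peaks and 2526 of the 9356 mid-width peaks, and 76 wide peaks lay within 10 kb of another.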
